A study of Mus musculus with 6 samples.

Results

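The miR-29 family was followed in T cell blasts and in the small extracellular vesicles (small EVs) that they secreted. Its members were taken by name from the 451 miRNAs listed in the deposited small RNA sequencing data. Of the 7 mature miR-29 names looked for, 6 were measured here, 3 from the 3p arm (mmu-miR-29a-3p, mmu-miR-29b-3p and mmu-miR-29c-3p) and 3 from the 5p arm (mmu-miR-29a-5p, mmu-miR-29b-1-5p and mmu-miR-29c-5p), while mmu-miR-29b-2-5p was not analysed here. There were 3 libraries of small EVs and 3 of T cell blasts, numbered 1, 2 and 5 in both groups. All came from wild-type C57BL/6 mice aged 8 to 12 weeks, without any transgene or deletion. By the sample labels and the methods, total splenocytes were stimulated with the T cell mitogen concanavalin A (2 μg/ml), then washed after 36 h and expanded in medium holding IL-2 (50 U/ml). On day 6 the culture supernatants were spun in steps, the last at 100000 g, to collect the small EVs, and the blasts were the cells of such cultures. A legend of the study instead calls the cells CD4+ T cells, and which of these holds could not be settled here.

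miRNAs are short RNAs that guide Argonaute proteins to messenger RNAs, mainly through their seed, the bases 2 to 8 counted from the 5′ end. Each hairpin precursor is cut into a 5p and a 3p arm, of which 1 is usually kept. In mouse T cells the miR-29 family is known to restrain the interferon-gamma response by repressing Ifng itself and the transcription factors T-bet (Tbx21) and Eomes, and outside the immune system it is best known for repressing collagen and other matrix genes. Cells also release miRNAs in small EVs, which other cells can take up.

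The 3 members of the 3p arm share 1 seed, here in capitals, and differ only further along. They are shown, 5′ to 3′, because the values that follow differ between miRNAs with the same seed. All sequences are from RefSeq (GRCm38.p6).
mmu-miR-29a-3p: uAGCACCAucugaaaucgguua
mmu-miR-29b-3p: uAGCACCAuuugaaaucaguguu
mmu-miR-29c-3p: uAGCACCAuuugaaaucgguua
Counted from 1 at the 5′ end, mmu-miR-29a-3p and mmu-miR-29c-3p differ at 1 base (C10U). From mmu-miR-29a-3p to mmu-miR-29b-3p there are 4 substitutions, C10U, G18A, U21G and A22U, and 1 extra base at the 3′ end of mmu-miR-29b-3p. Reads were aligned to mature sequences, so the split of reads between mmu-miR-29a-3p and mmu-miR-29c-3p rests on a single base and is uncertain. How many reads of mmu-miR-29c-3p belong to mmu-miR-29a-3p was not tested.

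The 5p arms are the other strand of the hairpins and each has a seed of its own, again in capitals.
mmu-miR-29a-5p: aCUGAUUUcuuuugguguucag
mmu-miR-29b-1-5p: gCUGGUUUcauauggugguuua
mmu-miR-29c-5p: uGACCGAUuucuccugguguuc

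The family is encoded at 2 loci. mmu-miR-29a-3p lies at chr6:31062673-31062694 on the minus strand, in Mir29a, and Mir29b-1 lies 275 bases from Mir29a on the same strand. mmu-miR-29c-3p lies at chr1:195037600-195037621 on the plus strand, in Mir29c, and Mir29b-2 lies 426 bases from Mir29c. mmu-miR-29b-3p is made from both loci (chr6:31063025-31063047, minus strand, and chr1:195037091-195037113, plus strand), so its reads cannot be assigned to either. In GENCODE M21 (GRCm38), Mir29b-2 and Mir29c lie within an exon of the noncoding gene A330023F24Rik, on its strand, and opposite an exon of Cd46. Mir29b-1 overlaps the edge of an exon of the lincRNA Gm27019, and Mir29a overlaps no other annotated gene. The hairpins of both miR-29b precursors, with the mature arms in capitals, hold the same 3p arm but different 5p arms.
Mir29b-1: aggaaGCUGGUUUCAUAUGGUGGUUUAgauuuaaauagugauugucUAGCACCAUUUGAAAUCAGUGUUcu
Mir29b-2: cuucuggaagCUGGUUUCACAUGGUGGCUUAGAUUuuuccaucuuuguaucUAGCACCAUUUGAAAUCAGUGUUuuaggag

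Values are deposited CPM, that is, reads scaled to the size of each library and adjusted between libraries by the TMM method. They were whole multiples of the worth of 1 read in every library, which gave back the reads. Small EVs 1, 2 and 5 held 463498, 433602 and 261393 reads in listed miRNAs, against 275708, 279737 and 236432 reads in T cell blasts 1, 2 and 5. A read was thus worth 2.09 to 3.47 CPM for small EVs and 3.67 to 4.79 CPM for T cell blasts. A count of 0 allows up to 3 reads, or 6.28 to 10.4 CPM per small EV library and 11.0 to 14.4 CPM per T cell blast library. Some lists of marker miRNAs of other cell types moved with the groups, and others did not. The summed level of 9 measured stromal and endothelial miRNAs of 10 listed ranged over 3208 to 5748 CPM for small EVs and 232 to 306 CPM for T cell blasts, with all 9 higher in small EVs and 4 of them without any read in the cells. Only miRNAs of at least 1 CPM in 3 libraries were kept by the authors. Those 4 could thus enter only through the small EVs, and their direction was fixed in advance. In small EVs most of the stromal and endothelial sum was mmu-miR-10b-5p, at a mean of 3131 CPM, against 24.7 CPM in T cell blasts. The 4 red cell miRNAs summed to 660 to 949 CPM for small EVs and 109 to 134 CPM for T cell blasts, and mmu-miR-223-3p, a myeloid miRNA, averaged 17.9 ± 2.86 CPM in small EVs and 1.22 ± 2.12 CPM in T cell blasts (SD, n = 3 each). Of the red cell miRNAs, 3 had no read in T cell blasts, so their direction was fixed in the same way. Of 5 measured epithelial miRNAs 1 was higher and 4 did not pass, with sums of 410 to 438 CPM for small EVs and 318 to 348 CPM for T cell blasts, and the 1 measured liver miRNA, mmu-miR-192-5p, did not pass (log2 difference 0.14, adjusted p = 0.842, limma). The 6 lymphoid miRNAs together were abundant in both, at 68053 to 92369 CPM for small EVs and 87285 to 108969 CPM for T cell blasts. Singly they moved both ways, with 3 higher in small EVs, 2 lower and 1 that did not pass. Over all 451 miRNAs, 21.1% were called higher in small EVs and 12.4% lower (adjusted p under 0.2, limma). mmu-miR-342-3p had a log2 difference of 3.13 and mmu-miR-142a-3p one of −1.19 (adjusted p = 2.96e-05 and 0.00141, limma). The part of the marker miRNAs' cells of origin in the miR-29 values was not tested. In bulk samples of T cell blasts, fewer cells of a type and less RNA per cell cannot be told apart.

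Within the miR-29 family, small EVs held more mmu-miR-29a-3p and less mmu-miR-29b-3p than the T cell blasts, while no difference was detected for mmu-miR-29c-3p and the 5p arms were rare in both. mmu-miR-29a-3p was 1.25-fold of its cell level in small EVs, and mmu-miR-29b-3p 0.649-fold. The call for mmu-miR-29a-3p was lost under 9 of 17 other settings and that for mmu-miR-29b-3p under 2 of 17. Of the 6 members, 1 was higher in small EVs, 1 was lower and 4 did not pass the study's threshold of an adjusted p of 0.2 (limma with Benjamini-Hochberg adjustment over all 451 miRNAs). Over all miRNAs, 21.1% were called higher in small EVs and 12.4% lower, so the members' counts were close to the background. The median log2 difference, small EVs minus T cell blasts, was −0.36 over all 6 members and 0.02 over all miRNAs. It was −0.09 over the 5 members above 3 reads in a library, a floor not applied to all miRNAs.

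**Figure D1:**
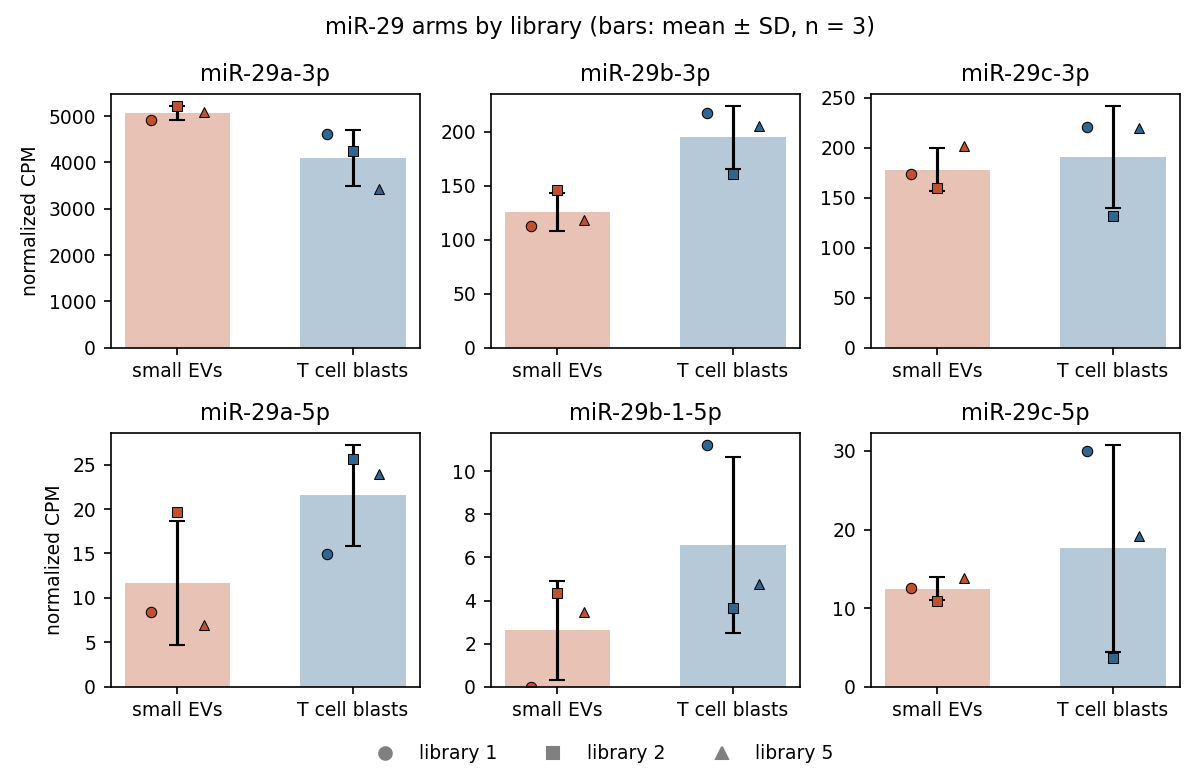
Level of each miR-29 arm in normalized CPM, with small EVs on the left and T cell blasts on the right of each panel. Points are libraries 1, 2 and 5, bars are means and error bars the SD (n = 3), and each panel has its own scale. The 3 small EV libraries lie above the 3 of T cell blasts for miR-29a-3p and below them for miR-29b-3p.

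mmu-miR-29a-3p was by far the most abundant member, ranking 30 among all miRNAs in small EVs and 27 in T cell blasts. Its level was 4910, 5220 and 5087 CPM in small EVs 1, 2 and 5, from 2344, 2390 and 1465 reads, against 4611, 4249 and 3427 CPM in T cell blasts 1, 2 and 5, from 1231, 1159 and 716 reads. The groups did not overlap, although small EVs 1 and T cell blasts 1 lay close, and the cells varied more than the small EVs. The means were 5072 ± 155 CPM in small EVs and 4096 ± 607 CPM in T cell blasts (SD, n = 3 each). On the log2(CPM + 1) scale the difference was 0.32 (SE 0.14, 95% confidence interval −0.01 to 0.65), with an adjusted p of 0.181 in limma. Its interval thus reached 0. The exact permutation test gave p = 0.1 (two-sided), the smallest that 3 against 3 libraries allow. This call was fragile. It was lost with edgeR on the recovered reads (adjusted p = 0.241), the tool of the study's own methods, and with DESeq2 (adjusted p = 0.326), but not with edgeR and the replicate number as a block (adjusted p = 0.172). It was also lost on leaving out any of small EVs 1, 2 and 5 (adjusted p = 0.282, 0.373 and 0.275) or T cell blasts 2 and 5 (adjusted p = 0.293 and 0.244), which left log2 differences of 0.34, 0.30, 0.32, 0.35 and 0.20.

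mmu-miR-29b-3p, the member made from both loci, went the other way. Its level was 113, 146 and 118 CPM in small EVs 1, 2 and 5, against 217, 161 and 206 CPM in T cell blasts 1, 2 and 5. These values rest on 54, 67 and 34 reads in small EVs and on 58, 44 and 43 reads in T cell blasts. All 3 libraries of small EVs lay below all 3 of T cell blasts, with small EVs 2 and T cell blasts 2 nearest to each other. The means were 126 ± 17.9 CPM in small EVs and 195 ± 29.6 CPM in T cell blasts (SD, n = 3 each). The log2 difference was −0.62 (SE 0.21, 95% confidence interval −1.12 to −0.13), with an adjusted p of 0.0779 in limma and p = 0.1 by exact permutation. Without small EVs 1 the log2 difference was −0.55 and the adjusted p in limma 0.215, past the threshold. It ranked 132 in small EVs and 114 in T cell blasts.

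mmu-miR-29c-3p, which differs from mmu-miR-29a-3p by 1 base and is encoded next to Mir29b-2, showed no detectable difference. Its level was 174, 159 and 201 CPM in small EVs 1, 2 and 5, from 83, 73 and 58 reads, against 221, 132 and 220 CPM in T cell blasts 1, 2 and 5, from 59, 36 and 46 reads. The groups overlapped, and T cell blasts 2 was the lowest of all 6 libraries. The means were 178 ± 21.3 CPM in small EVs and 191 ± 51.2 CPM in T cell blasts (SD, n = 3 each), with a log2 difference of −0.07 (SE 0.25, 95% confidence interval −0.65 to 0.52), an adjusted p of 0.90 in limma and p = 0.8 by exact permutation. The interval is wide enough to hold a decrease as large as that of mmu-miR-29b-3p, and also an increase as large as that of mmu-miR-29a-3p. Its sign was not stable, being positive at 0.11 when all libraries were scaled to the same sum and at 0.01, 0.06 and 0.05 without small EVs 2, T cell blasts 1 or T cell blasts 5.

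The order of the levels was the same at the top in both groups. mmu-miR-29a-3p came first, with no overlap with any other member. In small EVs mmu-miR-29c-3p followed and mmu-miR-29b-3p came after it, at 159 to 201 CPM and 113 to 146 CPM, without overlap. In T cell blasts the ranges of mmu-miR-29b-3p and mmu-miR-29c-3p, 161 to 217 CPM and 132 to 221 CPM, overlapped. These are levels of mature miRNAs of 22 or 23 bases, so length hardly enters, but reads of different miRNAs were not calibrated against each other.

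Groups did not overlap for 2 of the 6 members, mmu-miR-29a-3p with small EVs higher and mmu-miR-29b-3p with small EVs lower. Among all 451 miRNAs, 20.4% lay apart with small EVs higher and 14.4% with small EVs lower. Of the 174 miRNAs with a mean of at least 50 CPM, 62 had a higher log2 difference than mmu-miR-29a-3p and 29 had a lower one than mmu-miR-29b-3p. Both members were thus well within the spread of the other miRNAs.

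**Figure D2:**
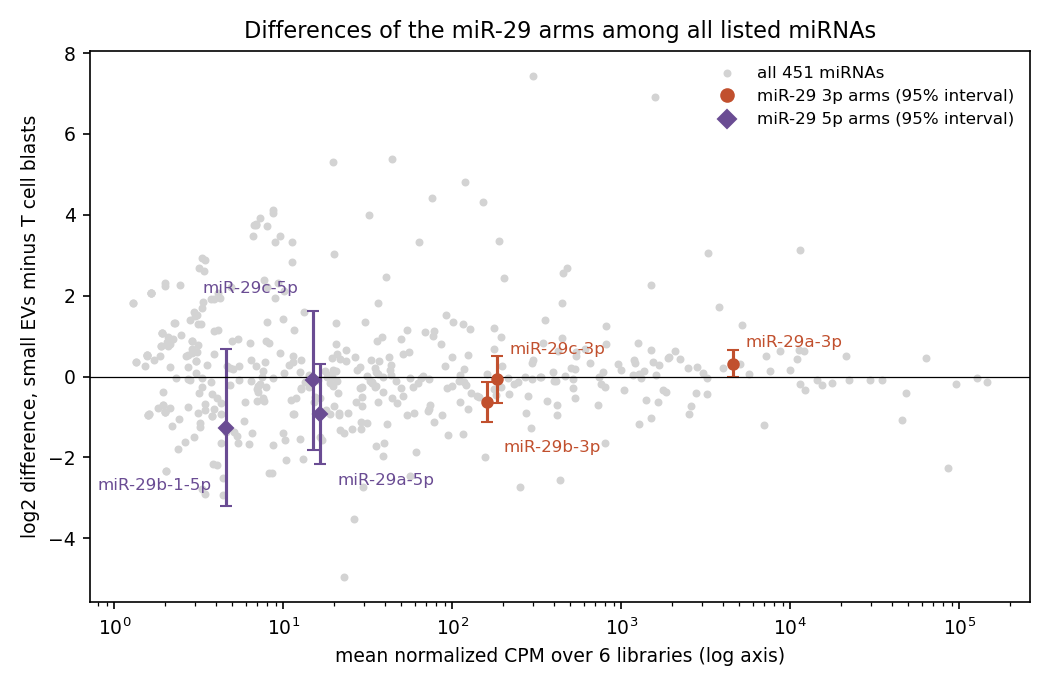
Log2 difference, small EVs minus T cell blasts, on log2(CPM + 1) against the mean level over the 6 libraries (log axis) for all 451 miRNAs in grey. The 3p arms of miR-29 are circles and the 5p arms diamonds, each with its 95% confidence interval. The interval of miR-29b-3p lies below 0, that of miR-29a-3p reaches just below 0, and the others span it widely.

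The 5p arms were near the limit of detection. mmu-miR-29a-5p had 8.38, 19.7 and 6.94 CPM in small EVs 1, 2 and 5, from 4, 9 and 2 reads, against 15, 25.7 and 23.9 CPM in T cell blasts 1, 2 and 5, from 4, 7 and 5 reads. The groups overlapped through small EVs 2. The log2 difference was −0.93 (SE 0.54), with an adjusted p of 0.306 in limma and p = 0.2 by exact permutation. Without small EVs 2 it was −1.35, with an adjusted p of 0.188 in limma, so that this single library decided on which side of the threshold the value fell.

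mmu-miR-29c-5p had 12.6, 10.9 and 13.9 CPM in small EVs 1, 2 and 5, from 6, 5 and 4 reads, against 30.0, 3.67 and 19.1 CPM in T cell blasts 1, 2 and 5, from 8, 1 and 4 reads. The cells spread on both sides of the small EVs. The log2 difference of −0.09 (SE 0.74) had an adjusted p of 0.958 in limma, and turned positive at 0.07 with equal sums and at 0.47 and 0.16 without T cell blasts 1 or 5. mmu-miR-29b-1-5p, the only arm measured here that marks the Mir29b-1 precursor, had 0, 2 and 1 reads in small EVs 1, 2 and 5 and 3, 1 and 1 reads in T cell blasts 1, 2 and 5. Both groups were at or under the floor of 3 reads in each library, so no fold is read from it. Its fitted difference and its ratio to the 3p arm depend on the pseudocount. Which precursor supplied mmu-miR-29b-3p could not be read from these data.

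Reads of the 3p arm far outnumbered those of the measured 5p arm for miR-29a, miR-29b and miR-29c in both groups. The 5p arm made up 0.227% ± 0.129 of the reads of both mmu-miR-29a arms in small EVs and 0.539% ± 0.192 in T cell blasts (SD, n = 3 each). For mmu-miR-29c it made up 6.53% ± 0.181 in small EVs and 7.55% ± 4.64 in T cell blasts. For mmu-miR-29b, the 5p arm of Mir29b-1 was set against 3p reads of both precursors, so the balance of neither hairpin is known, and it made up 1.92% ± 1.66 in small EVs and 3.14% ± 1.54 in T cell blasts. The 3 ratios of 3p to 5p overlapped between the groups, with p = 0.2, 0.6 and 1 by exact permutation for miR-29a, miR-29b and miR-29c.

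Summed over the 3 miRNAs that share the seed, small EVs 1, 2 and 5 had 5197, 5525 and 5406 CPM, against 5050, 4542 and 3853 CPM in T cell blasts 1, 2 and 5. Without the TMM adjustment, their share of the reads in listed miRNAs was 0.571% ± 0.0319 in small EVs and 0.424% ± 0.0760 in T cell blasts (SD, n = 3 each). The ranges of 0.535% to 0.596% and 0.340% to 0.489% did not overlap. The sum followed mmu-miR-29a-3p, which supplied 94.3% ± 0.220 of these reads in small EVs and 91.3% ± 2.30 in T cell blasts.

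In the family's composition, the share of mmu-miR-29b-3p did not overlap between the groups. Most 3p reads were those of mmu-miR-29a-3p, so this share largely restates the levels of the 2 members. mmu-miR-29b-3p made up 2.18%, 2.65% and 2.18% of the 3p reads in small EVs 1, 2 and 5, against 4.30%, 3.55% and 5.34% in T cell blasts 1, 2 and 5. The 95% exact Clopper-Pearson intervals, which cover counting error only, ran over 1.64% to 2.83%, 2.06% to 3.35% and 1.52% to 3.04% in the libraries of small EVs and over 3.28% to 5.53%, 2.59% to 4.74% and 3.89% to 7.13% in those of T cell blasts. Shares in small EVs lay below those in cells in every library, although the intervals of small EVs 2 and T cell blasts 2 overlapped. mmu-miR-29c-3p made up 3.32% ± 0.421 of the 3p reads in small EVs and 4.33% ± 1.40 in T cell blasts, with overlap.

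**Figure D3:**
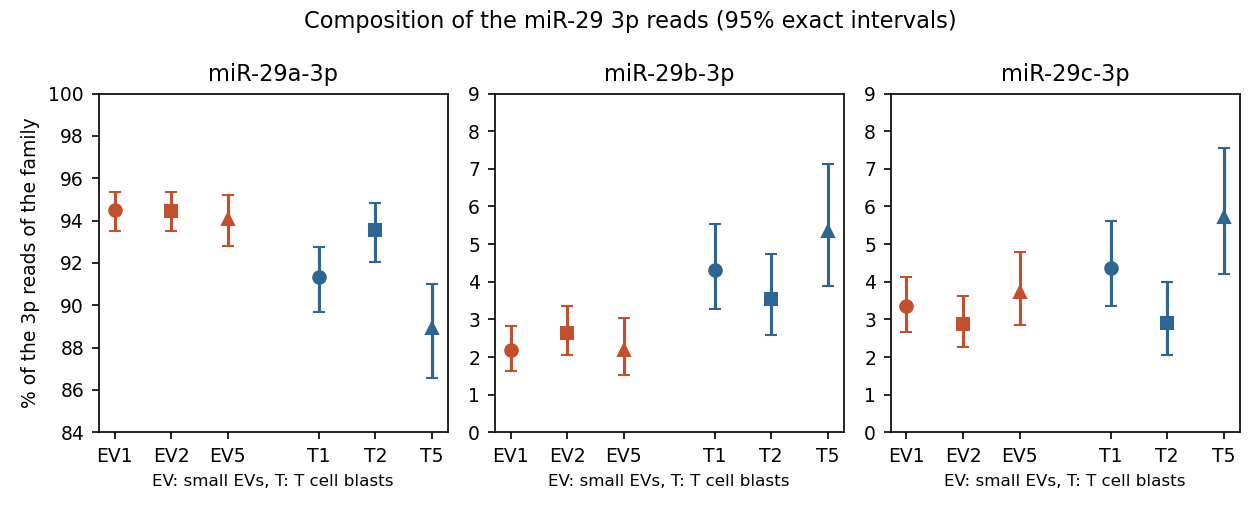
Percent of the miR-29 3p reads that each of the 3 members supplied, by library, with small EVs (EV1, EV2, EV5) left of T cell blasts (T1, T2, T5). Error bars are 95% exact intervals for counting error, and the axis of miR-29a-3p starts at 84%. The share of miR-29b-3p is 2.18% to 2.65% in small EVs and 3.55% to 5.34% in T cell blasts.

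Apart from the pseudocount, a ratio of 2 miRNAs within a library does not depend on how the libraries were scaled. The log2 ratios were taken on CPM + 1, which weighs most where reads are few, as for the 5p arms. The log2 ratio of mmu-miR-29b-3p over mmu-miR-29a-3p was −5.43, −5.15 and −5.42 in small EVs 1, 2 and 5, against −4.40, −4.71 and −4.05 in T cell blasts 1, 2 and 5. Every library of small EVs lay below every library of cells. This had to be so, since the groups lay apart in opposite directions for the levels of these 2 members. The ratio thus restates those levels and is not a further result. The mean difference was −0.94, so that relative to mmu-miR-29a-3p the level of mmu-miR-29b-3p in small EVs was 0.520-fold that in T cell blasts. Within the replicate numbers 1, 2 and 5 the differences were −1.03, −0.44 and −1.37. The exact permutation test gave p = 0.1, the smallest possible, which was fixed by the separation of the 2 levels. By exact sign flips of the pairs it was p = 0.25, which is also the smallest that 3 pairs allow.

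The ratio of mmu-miR-29b-3p over mmu-miR-29c-3p was also lower in small EVs, with log2 values of −0.62, −0.12 and −0.77 in small EVs 1, 2 and 5 against −0.02, 0.29 and −0.10 in T cell blasts 1, 2 and 5. These groups lay apart by a narrow gap, between small EVs 2 and T cell blasts 5. The mean difference was −0.56 (exact permutation p = 0.1). For mmu-miR-29c-3p over mmu-miR-29a-3p the mean difference was −0.39, and the groups overlapped (exact permutation p = 0.3). Within numbers 1, 2 and 5 this ratio was also lower in small EVs each time, by log2 differences of −0.43, −0.03 and −0.70 (exact sign flips, p = 0.25). Of the 6 ratios compared, 2 lay apart, both with mmu-miR-29b-3p on top and lower in small EVs, and the smallest Benjamini-Hochberg adjusted p over the 6 exact permutation tests was 0.3. Among all 451 single miRNAs, 20.4% lay apart with small EVs higher and 14.4% with small EVs lower. How often ratios of other miRNAs lie apart was not tested, so the count is not read as a trait of the family. With this number of libraries no single test could go below 0.1.

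**Figure D4:**
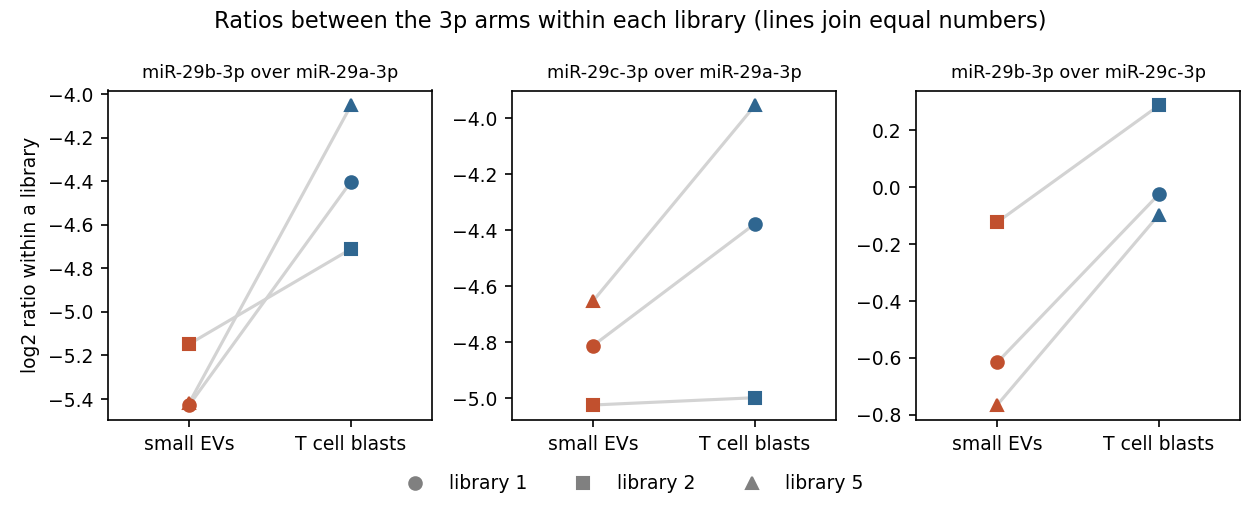
Log2 ratio between the 3p members within each library, small EVs on the left and T cell blasts on the right of each panel, with grey lines joining libraries of the same number. The ratio of miR-29b-3p to miR-29a-3p is −5.43 to −5.15 in small EVs and −4.71 to −4.05 in T cell blasts, and that of miR-29c-3p to miR-29a-3p overlaps.

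The end of mmu-miR-29b-3p sets it apart in sequence. Its last 6 bases are AGUGUU, a stretch known in human cells to direct miR-29b to the nucleus. Among the 370 of 451 listed miRNAs that matched a RefSeq mature sequence, 4 (1.08%) held AGUGUU anywhere on the mature strand, and mmu-miR-29b-3p was the only member with it. The seed AGCACCA occurred in 3 (0.811%), which were the 3 members of the 3p arm. GGAG, the core of a motif bound by hnRNPA2B1 in human T cells, occurred in 29 (7.84%) and in 0 members. The seed and AGUGUU do not overlap in mmu-miR-29b-3p. These are matches of letters and were not tested against the levels.

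By the root mean square difference of centred log2(CPM + 1) over the 6 libraries, the miRNAs of at least 50 CPM most like mmu-miR-29a-3p were mmu-miR-351-5p (0.0927), mmu-miR-20a-5p (0.0960) and mmu-miR-106b-3p (0.0966). Their log2 differences were 0.32, 0.34 and 0.20, and none passed the threshold (adjusted p = 0.274, 0.216 and 0.405, limma). Most like mmu-miR-29b-3p were mmu-miR-30d-3p (0.170), mmu-miR-130b-3p (0.179) and mmu-miR-322-5p (0.20), which were lower in small EVs by log2 differences of −0.96, −0.64 and −0.90 (adjusted p = 0.0307, 0.0151 and 0.00998, limma). mmu-miR-18a-3p (0.128), mmu-miR-339-5p (0.195) and mmu-miR-298-5p (0.212) were most like mmu-miR-29c-3p, with log2 differences of 0.00, 0.18 and −0.29 that did not pass. These miRNAs were chosen by their likeness over the same 6 libraries, so differences near those of the members follow from the choice. With 6 libraries shared by all miRNAs, such likeness is a description.

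Other miRNAs known to act on the interferon-gamma or Th1 response were all measured, 11 of 11. Of these, 4 were higher in small EVs, 0 were lower and 7 did not pass, with a median log2 difference of −0.03, against 0.02 over all miRNAs, of which 21.1% were called higher and 12.4% lower. This list was chosen with earlier results of these data known, so its counts are a description only. The largest differences were those of mmu-miR-146a-5p, which restrains NF-κB signalling, and mmu-miR-155-5p, which represses Socs1 and favours Th1 responses. mmu-miR-146a-5p averaged 5788 ± 821 CPM in small EVs and 1765 ± 194 CPM in T cell blasts, with a log2 difference of 1.71 (SE 0.15, adjusted p = 0.000425, limma). mmu-miR-155-5p averaged 7339 ± 1049 CPM in small EVs and 3066 ± 858 CPM in T cell blasts, with a log2 difference of 1.29 (SE 0.22, adjusted p = 0.0063, limma). Also higher were mmu-miR-181a-5p, which tunes T cell receptor signalling, and mmu-miR-19a-3p of the miR-17 cluster, with log2 differences of 0.64 and 0.48 (adjusted p = 0.0739 and 0.0454, limma).

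At the other end of this list stood mmu-miR-24-3p and mmu-miR-27a-3p, 2 miRNAs of the miR-23 cluster that limits effector T cell differentiation in mice. mmu-miR-24-3p averaged 1139 ± 393 CPM in small EVs and 1677 ± 475 CPM in T cell blasts, and mmu-miR-27a-3p 2710 ± 625 CPM in small EVs and 3698 ± 1052 CPM in T cell blasts (SD, n = 3 each). Their log2 differences of −0.57 and −0.44 did not pass (adjusted p = 0.220 and 0.277, limma). With the replicate number as a block, both passed (adjusted p = 0.0138 and 0.0374, limma), as did mmu-miR-150-5p (log2 difference −0.33, adjusted p = 0.182), which made 3 lower in place of 0, while over all 451 miRNAs the block gave 73 lower in place of 56. The calls of the 6 miR-29 members did not change with this block. Beside the 1.71 of mmu-miR-146a-5p, the log2 difference of 0.32 of mmu-miR-29a-3p was small.

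**Figure D5:**
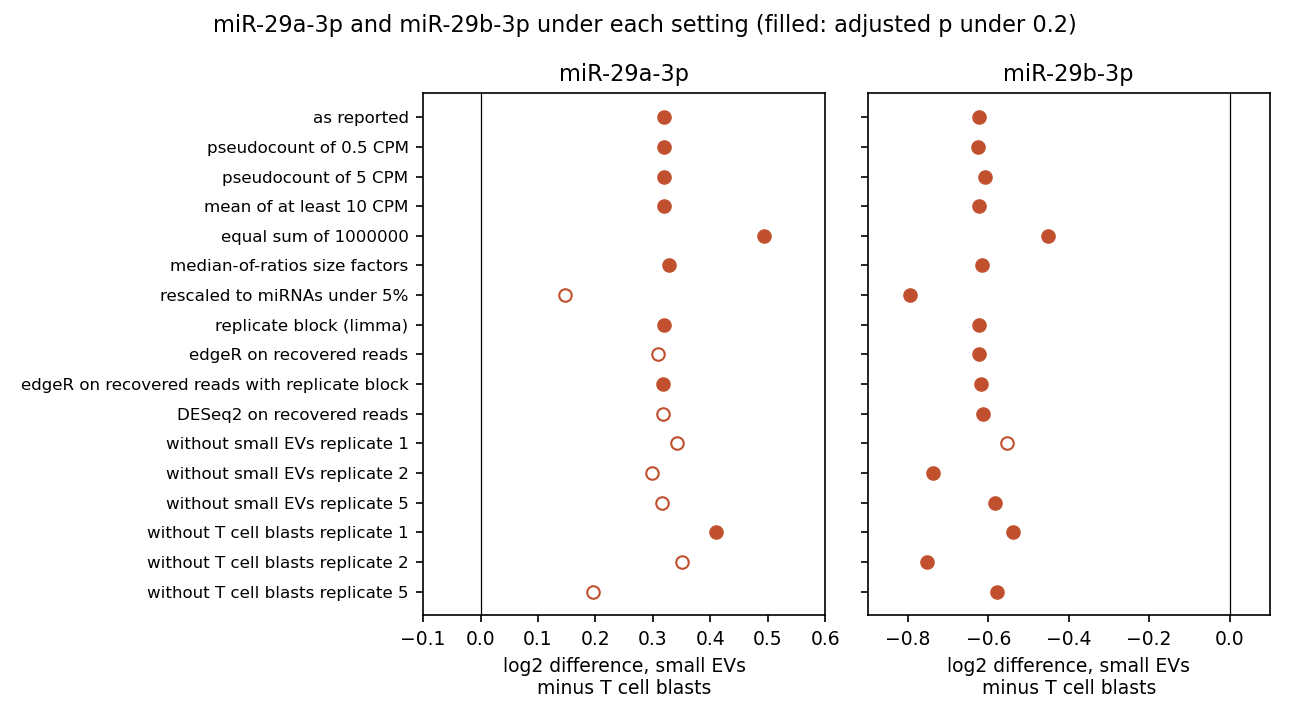
Log2 difference, small EVs minus T cell blasts, of miR-29a-3p (left) and miR-29b-3p (right) as reported and under each other setting. Filled points have an adjusted p under 0.2 and open points do not. miR-29a-3p stays above 0, from 0.15 to 0.49, with 8 open points, and miR-29b-3p stays below 0, from −0.79 to −0.45, with 1 open point.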

How the data were processed

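Small RNA was sequenced in 3 libraries of small EVs and 3 of T cell blasts (single reads of 75 bp), grouped by the sample labels. The authors trimmed adaptors with Cutadapt, aligned to mature mouse miRNAs of miRBase (bowtie or BWA in the methods, BWA in the submitters' notes, which also name CASAVA 1.8.2 and RSEM 1.17), quantified with RSEM and kept miRNAs of at least 1 CPM in 3 libraries. The deposited signal is CPM normalized by TMM in edgeR, and 100% of values were whole reads within 0.05 read. Differences were tested with limma 3.58.1 (R 4.3.3, trend, no block) on log2(CPM + 1) over all 451 miRNAs, with an adjusted p under 0.2. The choice of limma rested on the deposited values being normalized and not counts. The recovered reads also allowed a count model. Without a block, the call for mmu-miR-29a-3p was lost with edgeR and with DESeq2. Single values and ratios were compared by two-sided exact permutation (scipy 1.17.1).

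Alternatives were other pseudocounts (0.5 and 5 CPM), a mean of at least 10 CPM, 3 scalings, a block, edgeR 4.0.16 and DESeq2 1.42.0 on recovered reads, each library left out, and a threshold of 0.05. Scripts were tested on simulated data. A first requirement on recovered changes over all miRNAs was not met by DESeq2 and was replaced, after this was seen, by one on miRNAs of at least 50 CPM, so misses among rarer miRNAs are to be reckoned with. The members and lists were chosen with earlier results of these data known, and the search for short motifs was added after the values had been seen. Named miRNAs were all miR-29 rows, the 3 of at least 50 CPM most like each 3p member, the list miRNAs with the 2 largest and 2 smallest differences, and markers. mmu-miR-181a-5p, mmu-miR-19a-3p and mmu-miR-150-5p were named after their values were seen.

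Deviations from the group means correlated between libraries that share a number (r over 284 miRNAs of 0.148, 0.159 and 0.341 for numbers 1, 2 and 5), each above the 0.1 set for calling numbers paired. The block was fitted as an alternative only, and the main tests leave pairing out. The labels do not state such a pairing. Across numbers, r was also 0.166 between small EVs 1 and T cell blasts 2 and 0.114 between small EVs 2 and T cell blasts 1, so only number 5 is set apart.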

Additional observations from a re-analysis of the deposited data

How the results depend on the processing

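mmu-miR-29b-3p kept its sign under all 17 alternatives and its call under 15, losing it without small EVs 1 and at a threshold of 0.05 (−0.62, adjusted p = 0.0779). Its adjusted p over the alternatives was 0.0330 to 0.215, and its log2 difference −0.75 to −0.54 with 1 library left out. mmu-miR-29a-3p kept its sign under all 17 but its call under 8 only. It fell to 0.15 (adjusted p = 0.578) when libraries were rescaled to miRNAs that take under 5% of reads, and was 0.31 with edgeR, 0.32 with DESeq2 (adjusted p = 0.326) and 0.32 at a threshold of 0.05. With 1 library left out it was 0.20 to 0.41, and over the alternatives its adjusted p was 0.0792 to 0.578. These scalings move all miRNAs: the median log2 difference of all 451 was 0.19 with equal sums and −0.14 with the rescaling, and relative to that median mmu-miR-29a-3p was at 0.30 and 0.28, and mmu-miR-29b-3p at −0.64 and −0.66. The ratio of mmu-miR-29b-3p over mmu-miR-29a-3p was −1.10 to −0.77 with 1 library left out.

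Signs turned for 5 values. With equal sums mmu-miR-29c-3p was at 0.11 and mmu-miR-29c-5p at 0.070, and leaving out 1 library gave −0.31 to 0.057 and −0.90 to 0.47. mmu-miR-29a-5p was at −1.35 to −0.66. mmu-miR-18a-3p turned to −0.17 with the rescaling, −0.042 with edgeR, −0.038 with edgeR and the block and −0.027 with DESeq2, and ran over −0.27 to 0.21. The log2 ratio of mmu-miR-29b-3p over mmu-miR-29b-1-5p was −0.010 with a pseudocount of 5 CPM and −0.056 to 0.99 with 1 library left out, on 0 to 3 reads of the 5p arm per library, and that of mmu-miR-29c-3p over mmu-miR-29c-5p −0.41 to 0.59. mmu-miR-29b-1-5p has no value once a mean of 10 CPM is required. The cause was not tested for any of these.

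Over all miRNAs, 95 were higher and 56 lower, against 61 higher with a mean of at least 10 CPM (fewer tested), 63 higher with DESeq2 and 58 higher and 29 lower at a threshold of 0.05. In the interferon-gamma or Th1 list, 0 were lower, against 1 with a pseudocount of 5 CPM, 1 with a mean of at least 10 CPM, 2 with the rescaling, 1 with edgeR, 3 with edgeR and the block, and 0 to 2 with 1 library left out (2 without small EVs 5 or without T cell blasts 1). With the replicate block in limma it was 3, and the adjusted p was 0.138 for mmu-miR-29a-3p and 0.0789 for mmu-miR-29b-3p. With few reads for mmu-miR-29b-3p and mmu-miR-29c-3p, and only a handful for the 5p arms, depth limits what can be seen of them.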
